A study of Homo sapiens with 4 samples.

Results

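Tight junctions seal the space between epithelial cells, and 7 of their components were followed in MCF12A, a breast epithelial cell line that does not form tumours: CLDN1, CLDN4, CLDN7, OCLN, F11R, TJP1 and CGN. Members were taken from a fixed gene list, using the probe set (the group of short probes that reads one transcript) assigned to only 1 of the listed genes, and the brightest where there were several. Under that rule 6 of the 7 genes had a probe set among the 33297 on the array. For 5 of them the probe set named that gene alone, the OCLN probe set was shared with its pseudogene OCLNP1, and F11R was not named by the annotation used here and has no value. All cultures, unexposed ones included, were monolayers that shared a medium holding horse serum, hydrocortisone, cholera toxin, insulin and epidermal growth factor. RNA was read on 4 whole-transcript Affymetrix arrays, 1 for each culture. One experiment paired control 1 with a culture kept in 25 mM ethanol, the other paired control 2 with a culture kept in acetaldehyde at 2.5 mM, and both exposures lasted 1 week. Acetaldehyde is the first product of ethanol oxidation. With 1 array per arm the matched differences have no replicate check, and the labels do not say how the cultures of the experiments were related.

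Claudins are 4-pass membrane proteins whose extracellular loops pair between neighbouring cells and set which ions pass. Occludin stabilises the strands, and JAM-A, the product of F11R, is an immunoglobulin-like adhesion protein that helps to place polarity proteins at the contact. Inside the cell, ZO-1, the product of TJP1, ties claudins and occludin to actin, and cingulin, the product of CGN, binds ZO-1. In the mammary gland these junctions close the space between luminal cells, and CLDN1 is also known for the barrier of stratified epithelia.

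A log2 difference below is the exposed array minus the control of its own experiment, and a gene counted as kept if its highest value reached an intensity of 155, which held for 10374 features. The overall distributions lay 0.0398 (log2, mean gap) apart within the ethanol experiment, 0.0268 within the acetaldehyde experiment and 0.270 to 0.285 across them, so the difference between the controls also holds any difference in normalization. All 7 measured epithelial markers were kept. The basal keratin KRT5 lay between 9757 and 12169, while KRT19 was dim, reaching the filter only in control 2 (184). TP63 and KRT17 had no probe set of their own. Not all markers were as steady as KRT5. The basal keratin KRT14 was at 5075 in control 1 and 3212 with ethanol, then 1587 in control 2 and 822 with acetaldehyde. With ethanol 3 of the 7 were higher (EPCAM 0.70, KRT8 0.75 and KRT18 0.63) and 4 lower, where 42.2% of kept features were lower. Between the controls 3 of 7 were at least 2-fold lower in control 2, where 4.86% of kept features were. None of the 4 endothelial and 3 blood markers measured was kept, and of 6 fibroblast markers only COL1A1 and DCN were. The summed intensity of the fibroblast markers was 540.0 in control 1 and 450.0 with ethanol, then 887 in control 2 and 861 with acetaldehyde, and its part in the differences between the controls was not tested. In such cultures, fewer cells expressing a transcript and less of it per cell cannot be told apart.

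Among the claudins, CLDN1 (probe set 8092726) was the member furthest from its control with either exposure. In the ethanol experiment its intensity was 6153 unexposed and 2917 exposed, and in the acetaldehyde experiment 5309.7 unexposed and 3183 exposed. Both exposed cultures were below both controls, and the controls were close to each other. The level was 2.11-fold lower with ethanol (log2 difference -1.08) and 1.67-fold lower with acetaldehyde (-0.74), whereas control 2 was 1.16-fold below control 1 (-0.21). Of the 10374 kept features, 205 had a lower difference than CLDN1 with ethanol and 51 with acetaldehyde. Against the control of the other experiment the differences were -0.86 with ethanol and -0.95 with acetaldehyde. The lower of the controls exceeded the higher of the exposed arrays by 0.74 (log2), and 17 kept features had a larger gap in that direction. Both exposed arrays lay below both controls in 8.61% of kept features, a share that includes gaps of any size.

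**Figure D1:**
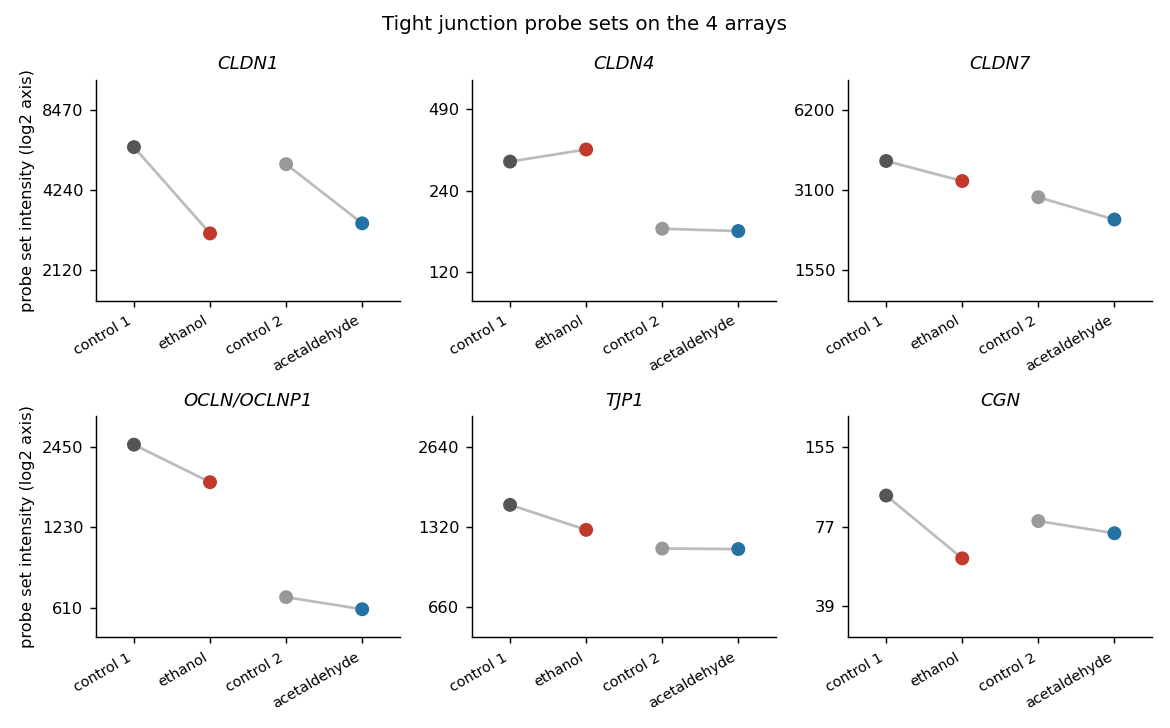
Probe set intensity (log2 axis, each panel with its own range of equal span) of the 6 measured tight junction members on the 4 arrays, with a grey line joining each exposed culture to its own control; each point is 1 array. CLDN1 is lower in both exposed cultures (2917 and 3183 against 6153 and 5309.7), while the probe set shared by OCLN and OCLNP1 separates the experiments (2497 and 1806 against 668 and 602).

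The promoters of CLDN1, CLDN7 and OCLN are shown as examples of 3 patterns. CLDN1 was lower than its own control with both exposures by a wide margin. CLDN7 was lower by a small margin, its ethanol value lying between the controls. The OCLN and OCLNP1 probe set differed mainly between the experiments. Each sequence covers the 250 bases before a transcription start in RefSeq (GRCh38.p14), 5′ to 3′ on the strand of the gene, in lower case, and capitals mark the E-box CAGGTG or its reverse complement CACCTG. Repressors of the SNAI and ZEB families, known for silencing epithelial junction genes, bind this motif. The CLDN1 window is chr3:190322447-190322696 (minus strand), the CLDN7 window chr17:7262479-7262728 (minus strand, the more downstream of 2 listed starts) and the OCLN window chr5:69492297-69492546 (plus strand, the more upstream of 2).
CLDN1: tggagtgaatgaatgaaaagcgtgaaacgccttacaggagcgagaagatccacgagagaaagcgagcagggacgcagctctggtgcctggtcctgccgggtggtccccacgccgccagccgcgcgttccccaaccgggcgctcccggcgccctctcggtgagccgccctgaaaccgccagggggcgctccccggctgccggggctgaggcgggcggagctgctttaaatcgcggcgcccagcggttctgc
CLDN7: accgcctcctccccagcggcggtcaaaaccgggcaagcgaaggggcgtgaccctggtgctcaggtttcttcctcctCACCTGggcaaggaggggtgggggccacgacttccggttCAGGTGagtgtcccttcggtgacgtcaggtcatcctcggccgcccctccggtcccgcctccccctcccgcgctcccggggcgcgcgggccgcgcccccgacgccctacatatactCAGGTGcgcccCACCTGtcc
OCLN: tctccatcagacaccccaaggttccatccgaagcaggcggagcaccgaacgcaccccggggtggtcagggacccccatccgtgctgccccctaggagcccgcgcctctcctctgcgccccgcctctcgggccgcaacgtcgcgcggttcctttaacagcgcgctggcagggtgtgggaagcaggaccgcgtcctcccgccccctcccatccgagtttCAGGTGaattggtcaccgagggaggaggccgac
No E-box of this form is in the CLDN1 window, 4 are in the CLDN7 window (beginning 174, 135, 20 and 9 bases before the start) and 1 is in the OCLN window (33 bases before). The other CLDN7 window, at the more upstream start, holds none, so the window shown is the one with the motif. The other OCLN window holds 1 (133 bases before). Of 35116 human promoter windows of this length in the same table, 17.5% held at least 1 and 0.122% at least 4. RefSeq windows were found for 6 of the 7 members, 11 in all, and 4 of the 11, from CLDN7, OCLN and TJP1, held the motif. The core ACCGGT of the grainyhead factors (its own reverse complement, so both strands read alike, with no overlap with the E-box) was in none of the 11 and in 1.45% of all windows. These matches describe letters and not binding.

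CLDN4 (probe set 8133360), a claudin of simple and glandular epithelia that restricts sodium passage, followed the experiment and not the exposure. Its intensity was 311 in control 1 and 345 with ethanol, but 174 in control 2 and 170.5 with acetaldehyde. Each exposed value was close to its own control, and the values of the experiments did not overlap. The differences were 0.15 with ethanol and -0.03 with acetaldehyde, against -0.84 between the controls. Set against control 2, ethanol would be 0.99 higher, so the choice of control decides the size of this value.

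CLDN7 (probe set 8012126), a claudin that also lies along the lateral membrane and binds EPCAM, was a little lower in both exposed cultures. Intensities were 3993 in control 1 and 3358 with ethanol, then 2919.8 in control 2 and 2408 with acetaldehyde. The differences of -0.25 and -0.28 were alike, and smaller than the -0.45 between the controls. The ethanol culture lay between the controls, and against control 2 its difference turned to 0.20.

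The OCLN probe set (8105908) is assigned to both OCLN and the pseudogene OCLNP1, so its signal cannot be divided between them. It read 2497 in control 1 and 1806 with ethanol, then 668 in control 2 and 602 with acetaldehyde. This was the largest difference between the controls among the measured members: control 2 was 3.74-fold below control 1 (log2 difference -1.90), lower than in all but 112 kept features. Within the experiments the differences were -0.47 with ethanol and -0.15 with acetaldehyde. Against control 2 the ethanol value turned to 1.43, so its sign rests on which control is used.

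Of the cytoplasmic members, TJP1 (probe set 7986977) had intensities of 1598 in control 1 and 1288 with ethanol, then 1096 in control 2 and 1091 with acetaldehyde. It was 1.24-fold lower with ethanol (-0.31) and nearly equal with acetaldehyde (-0.0064), with -0.54 between the controls, and the ethanol value turned to 0.23 against control 2. CGN (probe set 7905406) was dim on every array, at 101 in control 1 and 58.9 with ethanol, then 81.4 in control 2 and 73.2 with acetaldehyde. None of these reached the intensity of 155 required to be kept. The CGN differences of -0.78 and -0.15 come from a dim signal. It was near the median of all probe sets in control 1 (92.2) and below it with ethanol (90.2), in control 2 (113.8) and with acetaldehyde (113.0). Both exposed arrays were below both controls for CGN, as for CLDN1, though by only 0.15.

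Over the 6 measured members, 5 were below control 1 with ethanol (42.2% of kept features were) and 6 were below control 2 with acetaldehyde (49.3% were). With both exposures 5 of 6 were below their own control, against 26.9% of kept features. That count takes differences of any size. It includes the dim CGN and TJP1, whose acetaldehyde difference was -0.0064, with 97.0% of kept features further from 0. All 6 were lower in control 2 than in control 1 as well, against 45.5%, so a lower value was not limited to exposed cultures. The 6 include CGN, which was not kept, while the shares here and below are of kept features. Of the 5 kept members 4 were lower with ethanol, 5 with acetaldehyde and 5 between the controls. Before the filter the shares of all features were 52.2%, 54.7% and 33.0% in that order. Control 1 was the highest of the 4 arrays for 5 members (19.8% of kept features), CLDN4 being highest with ethanol (as 31.1% were). Acetaldehyde was the lowest for 4 (19.4%), and ethanol for CLDN1 and CGN (25.0%). The median difference over the 6 was -0.39 with ethanol, -0.15 with acetaldehyde and -0.50 between the controls, beside 0.05, 0.0030 and 0.06 over all kept features. Over the 5 kept members the medians were -0.31, -0.15 and -0.54. The ethanol median over the 6 turned to 0.22 when control 2 took the place of control 1. The ethanol and the control comparison share control 1, and the acetaldehyde and the control comparison share control 2.

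By size, with ethanol 1 of 6 members, CLDN1, was at least 2-fold lower and 0 were 2-fold higher, where 3.28% of kept features were 2-fold apart, 2.11% lower and 1.17% higher. With acetaldehyde 0 of 6 were 2-fold apart, where 0.241% of kept features were, 0.212% lower and 0.0289% higher. Between the controls 1 of 6, the OCLN and OCLNP1 probe set, was at least 2-fold lower and 0 were higher, where 9.11% of kept features were 2-fold apart, 4.86% lower and 4.25% higher. CLDN1 was the 1 member at least 1.5-fold lower with both exposures, as were 0.569% of kept features. When the controls were also required to be under 1.5-fold apart, a condition added after the values were seen, 18 features (0.174%) including CLDN1 were left. The other 5 measured members were within 1.5-fold of their control with acetaldehyde, and of these CGN alone was past 1.5-fold with ethanol.

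**Figure D2:**
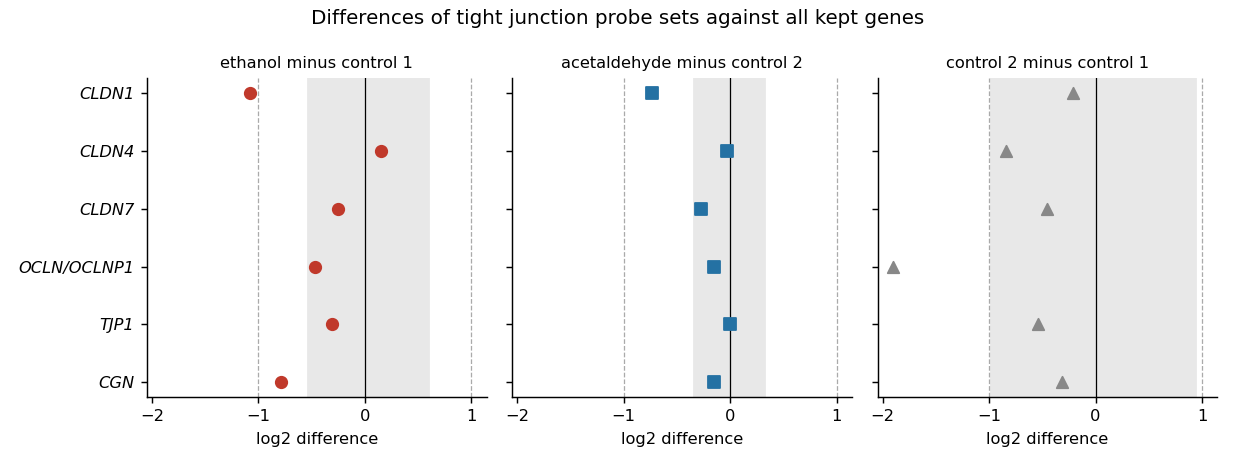
Log2 differences of the 6 measured members (rows) in the 3 comparisons (panels); grey bands hold the middle of all 10374 kept features, from the 5th to the 95th percentile, and dashed lines mark 2-fold. CLDN1 lies below the band with ethanol (-1.08, band from -0.53) and with acetaldehyde (-0.74, band from -0.34) and inside it between the controls, and CGN lies below it with ethanol only.

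**Figure D3:**
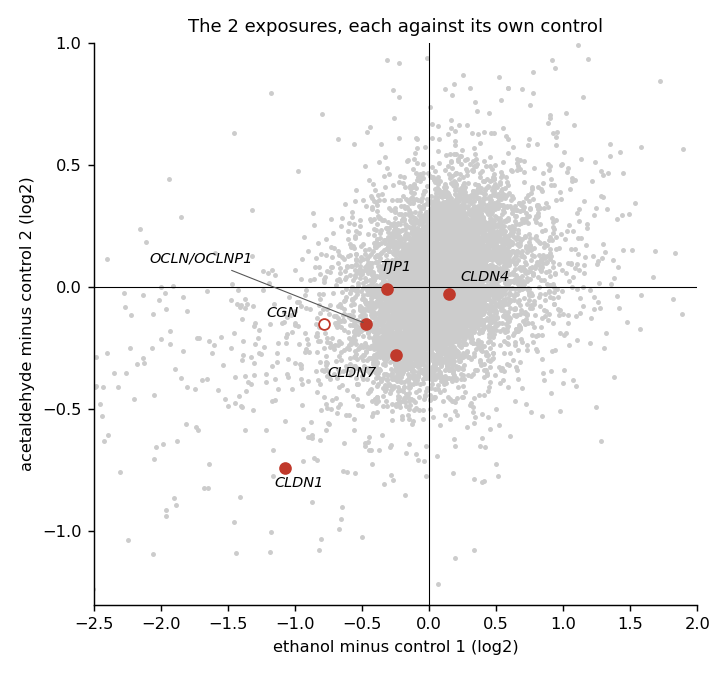
Log2 difference with ethanol (x axis) against that with acetaldehyde (y axis), each from its own control, for 10374 kept features (grey, 66 outside the plotted range) and the tight junction members (red; CGN, which was too dim to be kept, is open). CLDN1 lies apart from the other members at -1.08 and -0.74.

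Exposed and unexposed arrays were then compared in a single limma fit with the experiment as a block. Its residual is the difference between the 2 responses, with 1 degree of freedom. The eBayes step of limma pools this with the spread over all kept features, which carries 3.69 degrees of freedom. The SE and p of a gene therefore rest more on that pooled spread than on its own 2 responses. The fit treats ethanol and acetaldehyde as one exposure although they are different agents. CLDN1 was lower by a log2 difference of -0.91 ± 0.14 (SE, 4 arrays), ranked 23rd of 10374 features by p, and did not pass the limma test (adjusted p = 0.495, unadjusted p = 0.00151). It kept its direction in 2 of 2 pairs. CLDN7 was at -0.26 ± 0.11 and the OCLN and OCLNP1 probe set at -0.31 ± 0.13, both with a limma adjusted p of 0.498. With 1 array left out, which needs the fit without the block, the CLDN7 estimate was -0.04 without control 1, -0.02 without acetaldehyde, -0.50 without ethanol and -0.49 without control 2. TJP1 was at -0.16 ± 0.13 (limma adjusted p = 0.656) and CLDN4 at 0.06 ± 0.12 (limma adjusted p = 0.857), the latter 0.48 without control 1 and 0.57 without acetaldehyde. In all, limma called 0 features (0.0%) at an adjusted p under 0.05, by its trended version also 0, while 1024 (9.87%) had an unadjusted p under 0.05, CLDN1 being the 1 of 5 kept members among them.

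The other tight junction genes were taken from 5 lists of related proteins. Of 65 listed genes 61 had a probe set of their own and 43 were kept. With ethanol 29 were below control 1 (median -0.10), where 42.2% of kept features were. The 29 include CLDN17, which was kept only because of control 1. With control 2 in the place of control 1, 24 of the 43 were lower with ethanol (median -0.12), and the share of kept features was not counted. With acetaldehyde 24 were below control 2 (median -0.07), where 49.3% were. Between the controls 23 were lower in control 2 than in control 1 (median -0.12), where 45.5% were. The limma fit called 0 of the 43, and 4 had an unadjusted p under 0.05 beside 9.87% of all kept features, a share near that of the list, so the count is not a result about it. The 4 were the virus receptor and junction protein CXADR, the ZO family member TJP3 and the myosin light chain MYL9, all lower, and the multi-PDZ scaffold MPDZ, which was higher. MAGI1, MAGI2 and ARHGEF2 were among those not read by a probe set naming only them.

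Other claudins were mostly dim, 8 of 18 being kept. All 8 were below control 1 with ethanol (median -0.14), where 42.2% of kept features were, and 7 of them lay between -0.36 (CLDN19) and -0.04 (CLDN3). Apart from CLDN12, none of the 8 exceeded 298 on any array, near the intensity of 155 required to be kept. The claudins that were not kept were below control 1 too, from -0.51 (CLDN16) to -0.05 (CLDN20). Before the filter 52.2% of all features were below control 1, so the count is not read as a result about claudins. CLDN17 was kept only because of control 1, at 165 there against 31.2 with ethanol, 35.8 in control 2 and 38.8 with acetaldehyde. It was 1 of the 2 claudins lower in control 2 (-2.20), the other being CLDN12 (-0.82), which had 1612 in control 1 and 1561 with ethanol, then 914 in control 2 and 922 with acetaldehyde. CLDN12 thus matched CLDN4 in following the experiment. The dim CLDN20, below the intensity to be kept, was 1.16 higher in control 2.

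Among membrane partners, 5 of 9 were kept. CXADR was at 1881 in control 1 and 1015 with ethanol, then 741 in control 2 and 484 with acetaldehyde, so it was lower with each exposure (-0.89 and -0.61) but lower still between the controls (-1.34). JAM3, a relative of the product of F11R, went the other way between the experiments, at 101 in control 1 and 183 with ethanol, then 367 in control 2 and 344 with acetaldehyde. The tricellular proteins MARVELD2 and LSR were at -0.13 and 0.45 with ethanol and -0.07 and -0.33 with acetaldehyde.

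In the scaffold and plaque list 9 of 14 were kept. With ethanol 7 of them were below control 1 (median -0.13), where 42.2% of kept features were. With acetaldehyde 3 were below control 2 (median 0.10), where 49.3% were. AMOTL2, an angiomotin family member, had the lowest ethanol difference of the 9 (-0.87) and was higher with acetaldehyde (0.30). MPDZ was at 90.8 in control 1 and 164 with ethanol, then 246 in control 2 and 308 with acetaldehyde (0.86 and 0.32 within the experiments, 1.44 between the controls). TJP3, which binds claudins as ZO-1 does, was at 268 in both controls, 153 with ethanol and 217 with acetaldehyde (-0.81 and -0.30). It shared with CLDN1 the feature of close controls and lower exposed values. All 11 kept polarity complex genes were within 2-fold of their own control. They lay between -0.52 (PARD6B) and 0.18 (PARD6G) with ethanol and between -0.17 and 0.23 with acetaldehyde. The 10 kept contractility regulators lay between -0.52 (MYL9) and 0.49 (MYH9) with ethanol. Between the controls 2 of them were at least 2-fold apart, where 9.11% of kept features were. These were the actin-binding CTTN at -1.24 and the myosin MYH10 at 1.14.

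**Figure D4:**
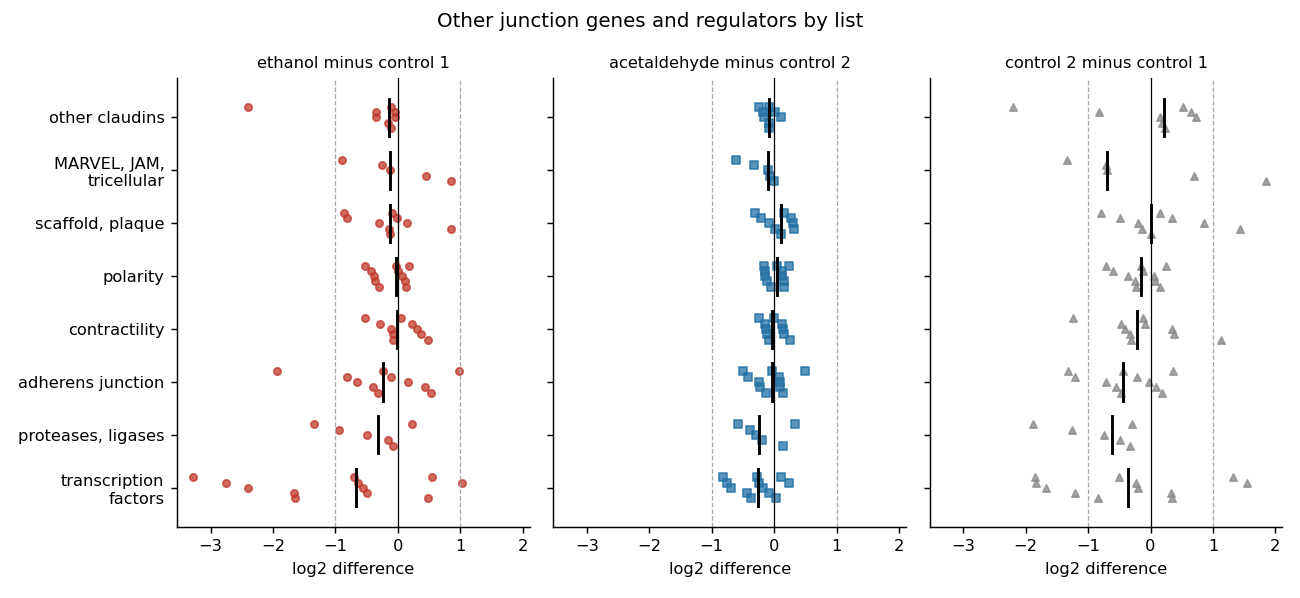
Log2 differences of kept genes (points) in 8 lists of junction genes and their regulators (rows) in the 3 comparisons (panels), with a black bar at each list's median and dashed lines at 2-fold. With ethanol the transcription factor list has the lowest median (-0.67), and with acetaldehyde no kept gene of these lists reaches 2-fold.

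Adherens junctions form beside tight junctions, and 11 of 13 listed genes were kept (median -0.24 with ethanol, -0.04 with acetaldehyde, -0.45 between the controls). E-cadherin CDH1 was at 2572 in control 1 and 2062 with ethanol, then 1025 in control 2 and 768 with acetaldehyde. Its largest difference was between the controls (-1.33), as for the OCLN and OCLNP1 probe set. Within the experiments CDH1 was at -0.32 with ethanol and -0.42 with acetaldehyde. The latter lay below the 5th percentile of kept features (-0.34), unlike that of the OCLN and OCLNP1 probe set (-0.15). Plakoglobin JUP, which also serves desmosomes, was at 5175 in control 1 and 2952 with ethanol, then 3742 in control 2 and 2644 with acetaldehyde. The adhesion molecule NECTIN4 was at -1.94 with ethanol, -0.23 with acetaldehyde and -1.21 between the controls. Another list held membrane proteases and ligases that act on claudins or their regulators, with inhibitors of those proteases. With ethanol 5 of its 6 kept genes were below control 1 (median -0.32), where 42.2% of kept features were. The 5 include the inhibitors SPINT1 (-0.50) and SPINT2 (-0.08). The serine protease PRSS8 was at -1.35 and ST14 (matriptase) at -0.94 with ethanol, with -0.39 and -0.58 for acetaldehyde and -1.26 and -1.89 between the controls. Against control 2 the ethanol medians turned to 0.18 for the adherens list and 0.35 for the protease list.

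Factors known to act on epithelial junction genes had the lowest median of the junction lists with ethanol. With ethanol 9 of 12 kept factors were lower (median -0.67, and -0.62 against control 2), where 42.2% of kept features were. At least 2-fold lower were 5 of them, where 2.11% of kept features were. EHF, an ETS factor of glandular epithelium, was at 1854 in control 1 and 191 with ethanol, then 514 in control 2 and 318 with acetaldehyde. GRHL2, a grainyhead factor known to act on the CLDN4 and CDH1 genes, was at 264, 49.7, 82.4 and 68.3 on the same arrays in that order, so it was kept only because of control 1, as was OVOL2. Without these 2 factors, 7 of 10 were lower with ethanol (median -0.67), 4 of them by 2-fold or more. The grainyhead factors GRHL1 and GRHL3 were at -2.75 and -1.65 with ethanol and -0.44 and -0.82 with acetaldehyde, and OVOL1 at -1.66 and -0.37. Between the controls EHF, GRHL1, GRHL2 and GRHL3 were also lower, at -1.85, -1.84, -1.68 and -1.21. The E-box repressor ZEB1 read 82.8 in control 1 and 169 with ethanol, then 241 in control 2 and 283 with acetaldehyde, so both exposed values were above their own control. TWIST1 and the dim ZEB2 were higher in control 2 by 1.32 and 1.05, and SNAI2, bright on every array, was at 0.49 with ethanol and 0.03 with acetaldehyde. The limma fit called 0 of these 12, and 8 had an unadjusted p under 0.05, as 9.87% of kept features did; the list was chosen with earlier results known, and GRHL2 is among the 8.

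Genes of squamous differentiation, the program of stratified epithelia, were also lower in the exposed cultures. All 18 kept genes of that list were below control 1 with ethanol (median -2.82), where 42.2% of kept features were. With acetaldehyde 17 of 18 were below control 2 (median -0.97), where 49.3% were. Between the controls 13 of 18 were lower in control 2 (median -1.40), where 45.5% were. SPRR2A was kept only because of control 1 and KRT1 only because of control 2, and without both the medians were -2.82, -0.97 and -1.40 over 16 genes. The list was chosen with earlier results known, so its counts are a description. Their summed intensity was 45204 in control 1 and 5462 with ethanol, then 25044 in control 2 and 13166 with acetaldehyde. CLDN1 took the same order, with its highest value in control 1, then control 2, acetaldehyde and ethanol, and so did the dim CGN, while CLDN4, CLDN7, TJP1 and the OCLN and OCLNP1 probe set did not. The sum is led by its brightest probe sets: 8 of the 18 genes took that order themselves and 10 did not, among them KRT10, S100A8 and S100A9, which were highest in control 2. How many of all kept features took that order was not counted, so the shared order is only a description. Whether the share of differentiating cells plays a part in the CLDN1 values was not tested.

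Nearness over the 3 differences, as a root mean square distance in log2 units, gave 3 genes nearest to CLDN1 among 10373 others. They were ARHGEF37 at 0.133, the desmosomal plaque protein PKP1 at 0.135 and the ion transport regulator FXYD3 at 0.150. PKP1 had 2546 in control 1 and 1387 with ethanol, then 2216 in control 2 and 1444 with acetaldehyde, and FXYD3 had 4951, 2778, 4545 and 2786 in the same order. For the OCLN and OCLNP1 probe set the nearest were the tetraspanin TSPAN14 (0.0708), FAM83B (0.0897) and the endocytic adaptor STON2 (0.115). TSPAN14 was at -0.35 with ethanol, -0.13 with acetaldehyde and -1.89 between the controls. The distance rests on 3 values per gene from 4 arrays and says nothing of shared control.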

How the data were processed

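RNA of 4 MCF12A cultures was read on 4 arrays. Values as deposited are linear intensities, 1 for each probe set on an array. They were made with RMA (background correction, normalization and probe summary) per the submitters' processing notes, whose software stands as not given in the sources used here. Since the planned analysis had assumed a log2 scale, they were converted to log2 without adding an offset. Value distributions matched within and not across experiments, so differences were taken within an experiment. Of 33297 probe sets, the platform annotation gave 1 symbol for 19460, several for 1754 and none for 12083; 19429 of the 19460 matched RefSeq by gene identifier. Probe sets with several symbols were left out, except the one shared by OCLN and OCLNP1. The brightest probe set stood for a gene, and 10374 of 18418 features whose highest value reached the median of the probe sets with 1 symbol (log2 7.28) were kept.

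The matched comparisons, 1 array against 1, have no test, and 2-fold was the threshold. The blocked comparison was fitted in R 4.3.3 with limma 3.58.1 (functions lmFit and eBayes), using Benjamini-Hochberg adjustment over all kept features, and the code was tested on simulated data. Its p-values reflect spread that may be technical, since nothing says how far the cultures were independent. Named are all members, listed junction genes and factors at least 2-fold apart in any comparison, the 3 nearest genes to each such member, and other list genes chosen after their values were seen. Alternatives were the other control, an offset, joint quantile normalization, a mean over probe sets, no filter, a 1.5-fold threshold, limma-trend, no block and leaving out arrays. Members and lists were chosen with earlier results of these data known. The motifs were chosen after the values were seen. Arrays carry no read depth, and their number limits precision. Longer exposures, the soft agar clone and microRNA assays were not analysed here. Python 3.11.15 and matplotlib 3.10.9 made the plots.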

Additional observations from a re-analysis of the deposited data

How the results depend on the processing

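The 6 members kept the direction of all 18 differences under joint quantile normalization of the 4 arrays. Each has 1 probe set, so a mean over probe sets leaves its values as they are. An offset of 16 before log2 can change the size of a difference but never its direction. Over these settings CLDN1 ranged from -1.21 to -1.07 with ethanol and from -0.74 to -0.73 with acetaldehyde. The largest other shift was CGN between the controls, -0.65 under quantile normalization. Joint normalization moved the median of all kept features by -0.05 with ethanol, -0.03 with acetaldehyde and -0.05 between the controls. With the other experiment's control in place, 912 features were 2-fold apart for ethanol (340 with its own) and 999 for acetaldehyde (25), and the member medians went to 0.22 and -0.80. At 1.5-fold the counts were 1002 for ethanol, 178 for acetaldehyde and 2890 between the controls (945 at 2-fold). Without the filter on dim genes they were 404, 48 and 1538. The ethanol split of 121 higher and 219 lower turned to 564 and 438 at 1.5-fold and to 512 and 400 against control 2; that of acetaldehyde, 3 and 22, went to 15 and 33 without the filter, 77 and 101 at 1.5-fold and 479 and 520 against control 1, and the control split of 441 and 504 went to 988 and 550 without the filter.

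The limma fit called 0 features under each full-array alternative, without the block (85 at an unadjusted p under 0.05, against 1024) and with the trended prior (1046). Leaving out 1 array, which needs the fit without the block and assumes a lone array varies like the others, gave 0 to 36 calls, the 36 coming without control 2, with no member among them. The estimate for CLDN1 ranged from -1.01 to -0.80 there. That for CLDN4 turned to -0.45 without ethanol and -0.36 without control 2. For the OCLN and OCLNP1 probe set the estimate turned to 0.64 without control 1 and 0.48 without acetaldehyde, and for TJP1 to 0.11 without control 1. Without the block these estimates take in the difference between the controls (-0.84, -1.90 and -0.54 in that order). Why the controls differed was not tested. With the block, leaving out an array leaves no residual degree of freedom. CGN lay below the filter, and CLDN4 was near it in the acetaldehyde experiment.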
